A study of Mus musculus with 6 samples.

Results

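The m6A readers are proteins that bind N6-methyladenosine, the commonest internal methyl mark of messenger RNA, and pass the mark on to splicing, export, translation or decay. The 10 reader genes followed here were taken from a fixed list of symbols, without a threshold on their values, and all 10 have a row among the 16906 protein-coding genes of the deposited count table. RNA was sequenced from whole colon tissue of wild-type male C57BL/6J mice aged 6 to 8 weeks and weighing 20 to 22 g. There were 3 libraries from mice on normal feeding and 3 from mice whose colon was instilled with TNBS at 5% w/v, a hapten used to model colitis. The labels give the normal group no procedure of its own, so the instillation and the agent cannot be told apart. They give neither the day of sampling nor the animal behind each library, so the spread between libraries may be partly technical. The series title names FTO, an enzyme that removes the mark.

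The readers fall into families with different places of work. Ythdf1, Ythdf2 and Ythdf3 are cytoplasmic YTH-domain proteins best known for translation and decay of methylated transcripts. Ythdc1 is the nuclear YTH protein, tied to splicing and export, and Ythdc2 carries an RNA helicase and is known above all from the germ line. The IGF2BP proteins stabilise bound transcripts, and Igf2bp1 and Igf2bp3 are mainly fetal in their expression while Igf2bp2 persists in adult tissue. Hnrnpa2b1 and Hnrnpc are abundant nuclear proteins, for which the mark can act by opening RNA structure. In the mouse gut, Ythdf1 is known for a part in crypt stem cells and regeneration.

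The libraries held 15185569 to 23380492 counts, and values are given as CPM, counts scaled to a common library total with TMM factors, where 3 counts come to 0.131 to 0.194 CPM. The colon epithelial markers Epcam, Cdh1, Vil1, Cdx1, Cdx2, Krt8 and Krt20 summed to between 7488 and 8845 CPM in normal libraries, to between 5760 and 6819 CPM after TNBS, and none of them was at 0. Libraries of the same group differ in ways the labels do not give. All donors are labelled male, and yet 4 Y-linked genes summed to 0.697%, 103% and 38.2% of the normal mean in TNBS replicates 1, 2 and 3. Hoxb6, a gene of position along the gut, stood at 79.3 and 80.6 CPM in TNBS replicates 2 and 3 and at 3.36 to 11.5 CPM in the other 4 libraries. Hoxb13, a further position gene, stood at 106, 57.7 and 7.37 CPM in normal replicates 1 to 3. In TNBS replicates 1 to 3 it stood at 21.4, 0.194 and 0.308 CPM. Normal replicate 3, the lowest normal library in Hoxb13, was the highest normal library in Ythdf2, Ythdc1, Ythdc2, Igf2bp2, Hnrnpa2b1 and Hnrnpc. It was the lowest normal library in Ythdf3, Igf2bp1 and Igf2bp3. The part of colon position in the reader values was not tested. Mitochondrially encoded genes took 3.92% and 1.95% of the counts in TNBS replicates 2 and 3 and 0.563% to 0.951% in the others.

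None of the 10 readers passed edgeR's quasi-likelihood test for TNBS against normal colon at an adjusted p under 0.05, a call that 2.05% of the 14126 tested genes received. At an unadjusted p under 0.05, 2 readers were lower, Ythdc1 and Hnrnpc, against 10.2% of all tested genes, and no reader was higher, against 10.8%. DESeq2, a second count test, called 1 of the 8 readers to which it gave an adjusted p lower and none higher. That reader was Ythdc1, and the shares over all genes with a DESeq2 adjusted p were 5.11% lower and 5.01% higher. limma-voom called no reader. The fitted log2 fold change was below 0 for 7 of the 10 readers and for 49.4% of tested genes. The median was -0.31 over the readers and 0.0073 over all tested genes. This count and median of the readers include Ythdf3, Igf2bp1 and Igf2bp3, which had 0 to 45 counts per library. Of these, Ythdf3 and Igf2bp1 were below 0.

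**Figure D1:**
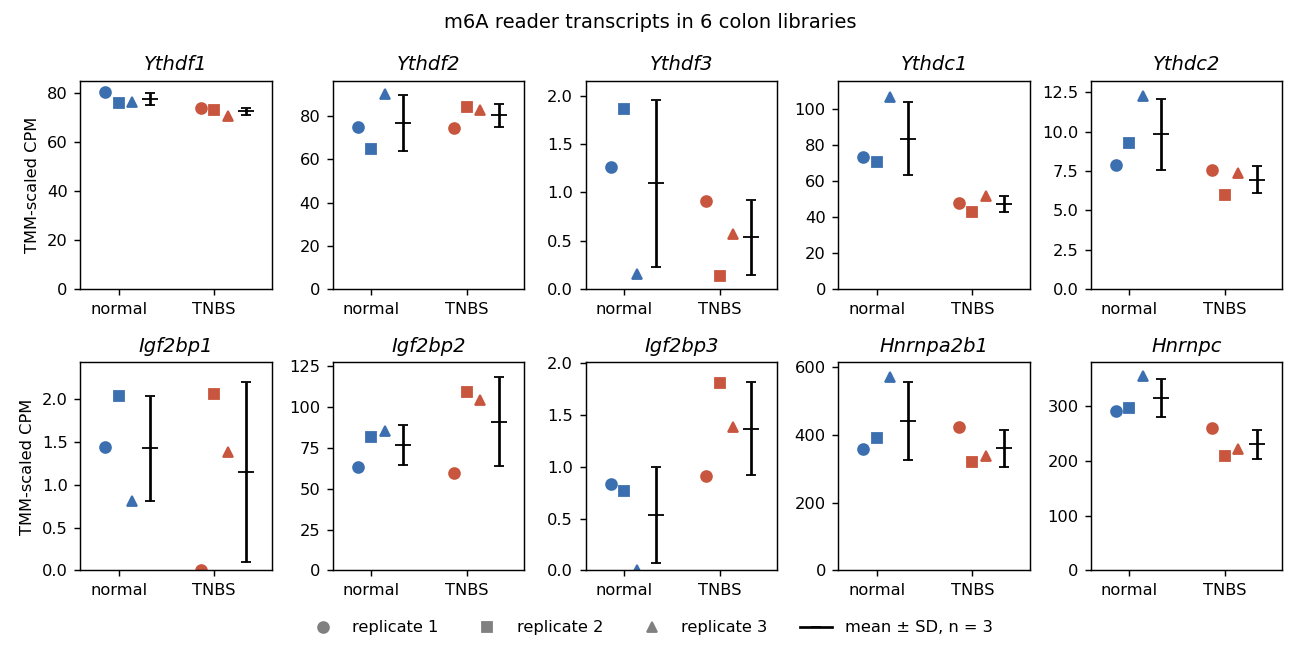
TMM-scaled CPM of each reader in each library (circle, square and triangle for replicates 1, 2 and 3; blue normal, red TNBS), with the mean and SD over n = 3 in black; each vertical axis starts at 0. The Ythdc1 points lie between 42.7 and 51.5 CPM in TNBS colon and between 70.7 and 107 CPM in normal colon.

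Promoters are shown for the readers with the smallest p, Ythdc1 and Hnrnpc, and for Ythdf1, the reader whose CPM varied least between libraries. The sequences come from RefSeq on GRCm38.p6, run 5′ to 3′ on the gene's own strand from 250 bases before to 50 bases after its start, and carry each CpG dinucleotide in capitals. They lie at chr5:86804016-86804315 on the plus strand for Ythdc1, at chr14:52103972-52104271 on the minus strand for Hnrnpc and at chr2:180920887-180921186 on the minus strand for Ythdf1.
Ythdc1: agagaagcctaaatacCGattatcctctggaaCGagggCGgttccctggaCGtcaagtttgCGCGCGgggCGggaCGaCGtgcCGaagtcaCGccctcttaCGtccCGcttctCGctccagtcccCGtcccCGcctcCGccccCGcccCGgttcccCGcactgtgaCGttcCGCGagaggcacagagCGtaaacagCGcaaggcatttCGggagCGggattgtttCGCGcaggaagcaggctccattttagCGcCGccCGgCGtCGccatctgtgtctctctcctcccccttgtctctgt
Hnrnpc: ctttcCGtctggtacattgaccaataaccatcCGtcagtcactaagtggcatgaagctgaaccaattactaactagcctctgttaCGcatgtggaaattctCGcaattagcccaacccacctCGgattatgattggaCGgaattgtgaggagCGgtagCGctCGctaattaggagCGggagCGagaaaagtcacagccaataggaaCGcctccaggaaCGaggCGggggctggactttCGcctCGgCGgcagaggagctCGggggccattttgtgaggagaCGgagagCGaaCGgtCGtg
Ythdf1: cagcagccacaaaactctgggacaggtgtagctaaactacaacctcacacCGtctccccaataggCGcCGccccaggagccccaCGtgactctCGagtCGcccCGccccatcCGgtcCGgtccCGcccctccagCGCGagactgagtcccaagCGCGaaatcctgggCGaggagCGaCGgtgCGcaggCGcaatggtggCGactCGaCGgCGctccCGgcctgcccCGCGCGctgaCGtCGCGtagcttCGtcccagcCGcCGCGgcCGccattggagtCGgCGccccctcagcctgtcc
These hold 35, 22 and 37 CpG, against a median of 7 over the 32851 promoters of the table. Of the 10 readers, Ythdf3 and Igf2bp1 have no entry there, and Ythdc2 was left out and not examined. The other 7 have 8 promoters, since Hnrnpa2b1 has 2 that overlap, and each of the 8 holds 22 to 47 CpG.

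A few short motifs were searched on both strands of these promoters as a description of their letters. The CCAAT box (CCAAT) was found in 5 of the 8 promoters and in 37.4% of all promoters. The 5 are those of Hnrnpc, Ythdf1 and Igf2bp3 and the 2 of Hnrnpa2b1, which overlap and share the site. That of Ythdc1 had none. The GC box (GGGCGG) was found in 4 of the 8, those of Ythdc1, Ythdf1, Ythdf2 and Igf2bp2, and in 35.7% of all. The E-box (CACGTG) was found in 2 of the 8, those of Ythdf1 and Igf2bp3, and in 7.15% of all. The letters of the TATA box (TATAAA), the ETS core (CCGGAAG) and the cAMP response element (TGACGTCA) were in none of the 8 and in 13.6%, 8.86% and 1.79% of all promoters.

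Ythdc1, with the identifier ENSMUSG00000035851, spans chr5:86804221-86836659 (mm10, plus strand). Normal replicates 1 to 3 held 73.1, 70.7 and 107 CPM of it, and TNBS replicates 1 to 3 held 47.9, 42.7 and 51.5 CPM. The groups did not overlap, and normal replicate 3 lay apart on the high side. Mean levels of 83.5 ± 20.2 CPM (normal) and 47.4 ± 4.42 CPM (TNBS; SD, n = 3) gave a fitted log2 fold change of -0.82 (standard error 0.21). The edgeR adjusted p was 0.0855 and the DESeq2 adjusted p 0.0130, so the call rests on the choice of test. The 95% interval of the fold ran from 0.410 to 0.786. Of all tested genes 4.03% had a smaller edgeR p. In whole tissue, fewer cells of a type and less of a transcript per cell cannot be told apart, here and for each gene below.

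The difference in Ythdc1 was also computed with libraries left out. Keeping TNBS replicate 2 alone, its log2 fold change was -0.97, and with TNBS replicate 1 alone it was -0.80, both taking the spread of a single library from the normal group. Without normal replicate 3, the library with the highest Ythdc1, the value was -0.60. None of these fits passed the threshold. The ratio of Ythdc1 to Ythdf1 counts needs no scaling between libraries and was picked after the values were seen. It was 0.908, 0.929 and 1.40 in the normal libraries and 0.648, 0.585 and 0.726 in the TNBS libraries, without overlap. Since Ythdf1 varied little between libraries, the ratio follows the Ythdc1 values and is no separate observation. Of the 50-base stretches of Ythdc1 transcripts 5.87% occur in another gene's transcripts, mainly in the noncoding Gm43055 that overlaps it.

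Hnrnpc packages nascent transcripts and binds uridine tracts that the mark can expose. The gene spans chr14:52073377-52104028 on the minus strand. Its CPM were 292, 297 and 354 in normal replicates 1 to 3, against 260, 210 and 222 in TNBS replicates 1 to 3. All TNBS values lay below all normal values. The means were 315 ± 34.5 and 231 ± 26.3 CPM (SD, n = 3), with a log2 fold change of -0.45, standard error 0.18 (edgeR adjusted p = 0.208, unadjusted p = 0.0357). On the log2 scale the 95% interval ran from -0.86 to -0.04, within 2-fold. Pseudogenes, mainly Gm12696, share 8.28% of its 50-base stretches, so a small part of its counts is uncertain.

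Hnrnpa2b1, a splicing and microRNA-processing factor and the most abundant reader by CPM, behaved less evenly. Its normal libraries held 359, 391 and 572 CPM, and its TNBS libraries 424, 321 and 337 CPM. TNBS replicate 1 lay above 2 of the normal libraries, so the groups overlapped. The log2 fold change of -0.29 had a standard error of 0.23 (edgeR adjusted p = 0.502; 95% interval of the fold 0.568 to 1.18). Without normal replicate 3 it was -0.055.

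Ythdc2 gave 7.90, 9.29 and 12.3 CPM in normal colon, and 7.54, 5.95 and 7.34 CPM after TNBS. The groups were apart, though TNBS replicate 1 lay only just below normal replicate 1. Its log2 fold change, -0.50, had a standard error of 0.31 (edgeR adjusted p = 0.386). The 95% interval of the fold, from 0.432 to 1.16, holds no change as well as a fall of over 2-fold. Without normal replicate 3 the log2 fold change was -0.30. Ythdc2 rests on 92 to 243 counts per library.

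In all, the groups did not overlap on the lower side for 4 of the 10 readers, Ythdc1, Hnrnpc, Ythdc2 and Ythdf1, where 14.8% of tested genes did the same. On the higher side they did not overlap for 1 reader, Igf2bp3, against 15.3% of tested genes.

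Several cell-type marker sums were lower in every TNBS library, as Ythdc1, Hnrnpc, Ythdc2 and Ythdf1 were, beside that of the epithelial markers given above. Of those epithelial markers, Epcam, Cdh1 and Krt20 were lower in every TNBS library, and Vil1, Cdx2 and Krt8 overlapped between the groups. Cdx1 was higher in every TNBS library, at 164 to 223 CPM against 85.9 to 152 CPM in normal libraries. Markers of crypt stem cells and dividing cells summed to 787 to 1073 CPM in normal libraries, and to 337 to 522 CPM after TNBS, with 3 of 7 tested genes called lower and Olfm4 at 0 in at least 1 library. Most of that sum is Mki67 and Top2a, which mark dividing cells, while the stem cell markers Lgr5 and Smoc2 stood at 24.2 and 63.8 CPM in TNBS replicate 1, above their normal ranges of 13.4 to 13.98 and 22.0 to 38.8 CPM. Markers of B and plasma cells summed to 1601 to 2473 and 225 to 800 CPM, with none of 4 called. Goblet cell markers summed to 37755 to 69243 and 4140 to 14145 CPM, with 2 of 7 called lower. Clca1 and Fcgbp carry much of that difference, and in TNBS replicate 1 Muc2 and Agr2 lay inside their normal ranges and Spdef, at 134.8 CPM, above its normal 65.3 to 107 CPM. Smooth muscle markers summed to 5707 to 7653 and 2815 to 4924 CPM, with none of 5 called. Of these, Actg2, Des and Cnn1 were lower in every TNBS library, and Myh11 and Acta2 overlapped between the groups. The sums for absorptive colonocytes, monocytes and macrophages, T cells, fibroblasts, and enteric neurons and glia overlapped between the groups. Among them, 3 of 6 tested absorptive colonocyte genes were called lower, and 1 of 6 tested monocyte and macrophage genes was called higher. Sums of 2 lists were higher in every TNBS library. Endothelial markers summed to 136 to 143 and 243 to 387 CPM, with 2 of 5 called higher. Neutrophil markers summed to 2.14 to 3.17 CPM in normal libraries, and to 53.8 to 122.6 CPM after TNBS, with 4 of 6 called higher. S100a8, Mmp8 and Retnlg were at 0 in at least 1 normal library. Csf3r was at 0 in TNBS replicates 2 and 3, and at 0.0436 to 0.0906 CPM in normal libraries, under the CPM of 3 counts. The part of these shifts in the reader values was not tested.

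The cytoplasmic readers Ythdf1 and Ythdf2 differed little between the groups. Ythdf1, which promotes translation, spans chr2:180904377-180920949 on the minus strand. Normal replicates 1 to 3 had 80.5, 76.1 and 76.4 CPM, and TNBS replicates 1 to 3 had 73.9, 73.1 and 70.9 CPM. The groups were apart but by little, and no reader varied less, with a coefficient of variation of 3.17% in normal and 2.13% in TNBS colon. The fitted log2 fold change, -0.10, had a standard error of 0.15 (edgeR adjusted p = 0.743; 95% interval of the fold 0.738 to 1.18).

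Ythdf2, which recruits the CCR4-NOT deadenylase to methylated transcripts, spans chr4:132184912-132212303 on the minus strand. Its CPM were 75.2, 64.9 and 90.3 in normal colon, against 74.3, 84.2 and 82.6 after TNBS. The TNBS values lay inside the normal range. A log2 fold change of 0.065 was fitted, standard error 0.18 (edgeR adjusted p = 0.857; 95% interval of the fold 0.790 to 1.39). A processed pseudogene, Gm6823, accounts for most of the 7.49% of its 50-base stretches that are shared.

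Ythdf3, the remaining member of that family, was close to the detection limit. It had 29, 41 and 3 counts in the normal libraries and 20, 2 and 11 in the TNBS libraries, or 1.27, 1.86 and 0.151 CPM against 0.909, 0.129 and 0.564 CPM. The groups overlapped, and each held a library at or under the 3 counts taken as the detection limit. The log2 fold change of -1.01 was fitted, standard error 1.07 (edgeR adjusted p = 0.615; 95% interval of the fold 0.0933 to 2.66). It was -1.62 without TNBS replicate 1, -1.51 without normal replicate 3, -0.57 without TNBS replicate 2 and -0.38 without normal replicate 2. In the counts as listed, Ythdf3 made up 0.0822% to 1.30% of the summed CPM of the YTHDF family, and Ythdf1 and Ythdf2 shared the rest. No gene overlaps Ythdf3 in the GENCODE vM21 annotation, and none of its 50-base stretches occurs in another gene's transcripts. Cnot1, the scaffold of the CCR4-NOT complex and a gene that nearly every cell uses, is listed at 0, 0 and 0 counts in the normal and at 0, 4 and 2 counts in the TNBS libraries. The low count of Ythdf3 is therefore given as the table lists it and not as a level in the tissue.

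Igf2bp2, which binds and stabilises messenger RNA, spans chr16:22059009-22163299 on the minus strand. The normal libraries held 63.0, 81.7 and 85.3 CPM, and TNBS replicates 1 to 3 held 59.8, 109 and 104 CPM. TNBS replicates 2 and 3 were the highest of all 6 libraries and TNBS replicate 1 the lowest. The fitted log2 fold change, 0.25, had a standard error of 0.25 (edgeR adjusted p = 0.595; 95% interval of the fold 0.803 to 1.76). The libraries with the high values are those with Hoxb6 at 79.3 and 80.6 CPM. They also had the highest mitochondrial shares, 3.92% and 1.95% of counts. Their Y-linked sums, 103% and 38.2% of the normal mean, were above the 0.697% of TNBS replicate 1. Without TNBS replicate 1 the log2 fold change was 0.48 (edgeR adjusted p = 0.181), and keeping TNBS replicate 1 alone it turned to -0.36. The part of these differences between libraries, colon position among them, in Igf2bp2 was not tested.

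The mainly fetal members of that family were near the floor. Igf2bp1 had 33, 45 and 16 counts in the normal and 0, 32 and 27 in the TNBS libraries, where a count of 0 allows up to 0.136 CPM. The groups overlapped, and the direction depended on TNBS replicate 1, without which the log2 fold change went from -0.32 to 0.27 (edgeR adjusted p = 0.895 and 0.862). Igf2bp3 had 19, 17 and 0 counts in the normal and 20, 28 and 27 in the TNBS libraries, or 0.829, 0.771 and 0 CPM against 0.909, 1.81 and 1.39 CPM. The groups did not overlap, by the margin of a few counts. A log2 fold change of 1.34 was fitted, standard error 1.12 (edgeR adjusted p = 0.519), and without normal replicate 3, which had no count, it was 0.77. Malsu1, a mitochondrial ribosome assembly gene on the opposite strand, shares 18.1% of the 50-base stretches of Igf2bp3. Malsu1 averaged 10.9 ± 2.93 CPM (normal) and 17.0 ± 6.23 CPM (TNBS; SD, n = 3; edgeR adjusted p = 0.307), and whether its reads reach the Igf2bp3 count was not tested. Igf2bp2 made up 96.5% to 99.1% of the summed CPM of the 3 IGF2BP genes in every library.

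**Figure D2:**
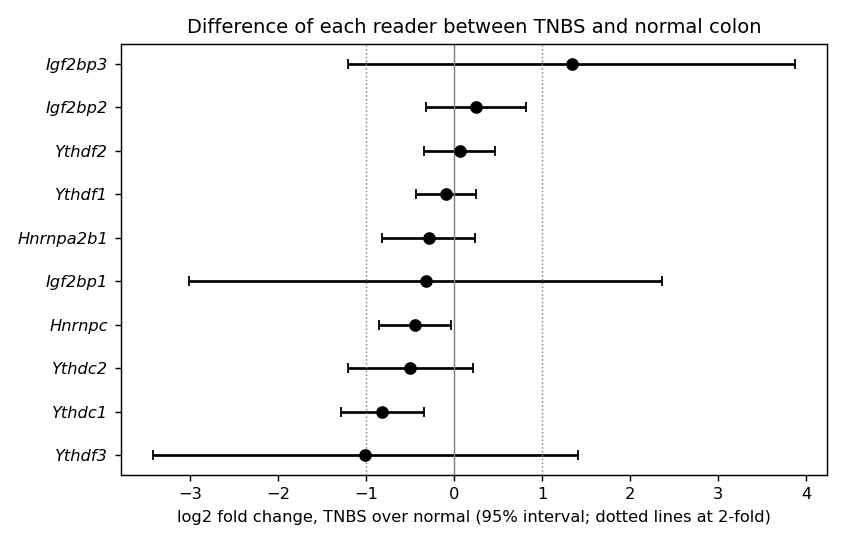
Fitted log2 fold change of each reader, TNBS over normal, from edgeR with its 95% interval (n = 3 libraries a group); dotted lines mark a 2-fold difference. The intervals of Ythdc1 and Hnrnpc lie below 0, and those of Ythdf3, Igf2bp1 and Igf2bp3 span more than 2-fold in both directions.

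The intervals set the size of difference these libraries can hold. For 5 of the 10 readers, Ythdf1, Ythdf2, Igf2bp2, Hnrnpa2b1 and Hnrnpc, the 95% interval lay within 2-fold in both directions, as it did for 43.2% of tested genes. For Ythdc1 and Ythdc2 it reached past 2-fold on the lower side only. For Ythdf3, Igf2bp1 and Igf2bp3, with 0 to 45 counts per library, the interval held changes of over 2-fold in either direction.

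Levels were compared between readers as CPM per kilobase of exon. In normal colon Hnrnpc was highest at 72.8 ± 7.99, followed by Hnrnpa2b1 at 66.9 ± 17.4, and these neighbours did not differ beyond their spread. Ythdf1 came next at 23.4 ± 0.742, then Ythdf2 at 16.8 ± 2.80, Igf2bp2 at 10.4 ± 1.62 and Ythdc1 at 6.12 ± 1.48 CPM per kilobase (SD, n = 3). The ranges of these 4 did not overlap in normal colon with joined exons as the length. With the longest transcript Ythdf2 spanned 15.7 to 21.9, Igf2bp2 12.7 to 17.2 and Ythdc1 11.2 to 16.9 CPM per kilobase, and these 3 overlapped. Ythdc2 stood at 1.11 ± 0.251, and Ythdf3, Igf2bp1 and Igf2bp3 at 0.204, 0.148 and 0.0653 CPM per kilobase, where their ranges overlapped and Ythdf3 is given only as the table lists it. In TNBS colon the order of the 7 highest changed only at the top, where Hnrnpa2b1 at 54.8 ± 8.39 and Hnrnpc at 53.4 ± 6.08 lay within each other's spread. Ythdc1 has 9 annotated transcripts whose exons join to 13651 bases while the longest transcript has 6313, so its level depends on the length used. With the longest transcript its normal level was 13.2 CPM per kilobase, and it kept its sixth place.

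**Figure D3:**
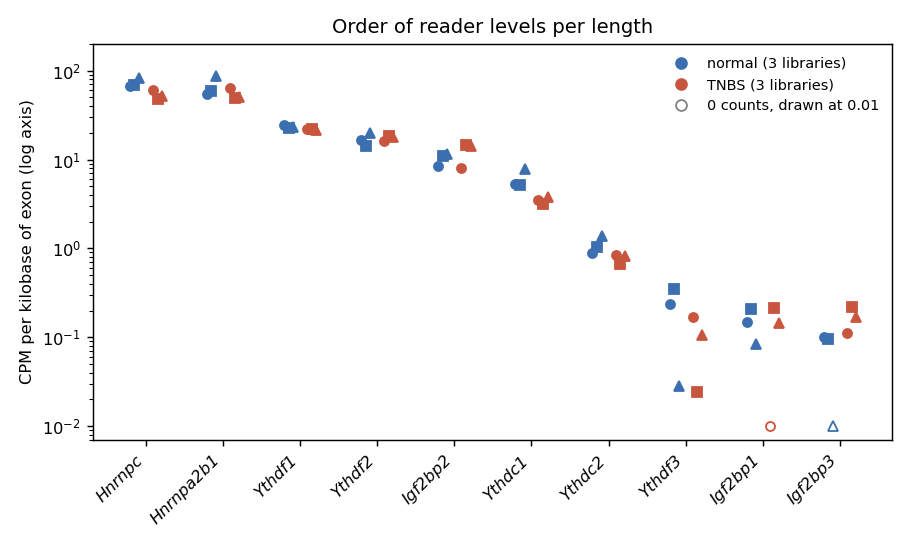
CPM per kilobase of exon on a log axis for each reader and library (blue normal, red TNBS; marker shapes for replicates 1 to 3), ordered by the normal mean; open symbols at the foot of the axis are libraries with 0 counts. Hnrnpc and Hnrnpa2b1 lead at 48.5 to 86.8 CPM per kilobase, and Ythdf3, Igf2bp1 and Igf2bp3 reach at most 0.347.

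In sums by family, Ythdf3 is again taken only as listed. The summed CPM of the 3 YTHDF genes was 156 ± 12.1 in normal and 154 ± 4.14 in TNBS colon (SD, n = 3). That of Ythdc1 and Ythdc2 was 81.0, 80.0 and 119 CPM in the normal and 55.4, 48.7 and 58.9 CPM in the TNBS libraries. Their share of all reader CPM was 8.03% to 9.17% in the normal libraries and 5.73% to 6.69% in the TNBS libraries. The nuclear and helicase YTH genes thus made up a smaller part of the reader CPM in each TNBS library. CPM is not divided by gene length, so these are shares of counts and not of transcript molecules. The IGF2BP share was 6.64% to 8.49% in the normal libraries and 6.40%, 13.3% and 12.1% in TNBS replicates 1, 2 and 3. The hnRNP genes took 68.2% to 71.3% and 62.4% to 72.0%. These sums follow from the single genes above and were not tested.

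The other genes of the m6A pathway stand beside the readers in the same fit. Of 48 listed, 47 are in the table and 46 were tested; none passed the edgeR test, and DESeq2 called none. Their median log2 fold change was -0.10, and 3 were lower and 2 higher at an unadjusted p under 0.05, where 10.2% and 10.8% of all tested genes were. The 13 writers, which place the mark, had a median of -0.08. Those of smallest p were Pcif1, the writer of the cap-adjacent mark, at 29.2 ± 6.61 and 45.8 ± 8.05 CPM (SD, n = 3; edgeR adjusted p = 0.176), Trmt112, a cofactor of the ribosomal RNA writer Mettl5, at 7.98 ± 1.98 and 13.5 ± 2.61 CPM (edgeR adjusted p = 0.213), and Virma, a scaffold of the writer complex, at 99.8 ± 5.81 and 81.3 ± 5.27 CPM (edgeR adjusted p = 0.306). The erasers Alkbh5 and Fto had log2 fold changes of 0.069 and 0.040 (edgeR adjusted p = 0.828 and 0.918).

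Among 9 further proteins described as readers or as sensitive to the mark, the median log2 fold change was -0.09. Fmr1, a repressor of translation, was at 152, 155 and 277 CPM in the normal and 128, 110 and 128 CPM in the TNBS libraries, with the groups apart and normal replicate 3 highest, as for Ythdc1 (log2 fold change -0.68, standard error 0.25, edgeR adjusted p = 0.179). Fxr2, a relative of Fmr1, and Snd1, a nuclease-domain protein, had log2 fold changes of 0.23 and 0.14 (edgeR adjusted p = 0.525 and 0.698). Of the 22 tested partners through which readers act, 16 had a log2 fold change below 0, where 49.4% of all tested genes did, and the median was -0.16, against 0.0073 over all. The 3 of smallest p were Rida, which links YTHDF2 to an endonuclease in human cells, at 25.4 ± 6.93 and 16.2 ± 0.769 CPM, the exonuclease Xrn1 at 37.6 ± 7.25 and 26.3 ± 3.20 CPM, and the deadenylase Cnot6l at 154 ± 29.9 and 116 ± 2.94 CPM (SD, n = 3; edgeR adjusted p = 0.191, 0.224 and 0.245). The groups did not overlap on the lower side for 7 of the 22 partners, these 3 among them, where 14.8% of all tested genes did the same.

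**Figure D4:**
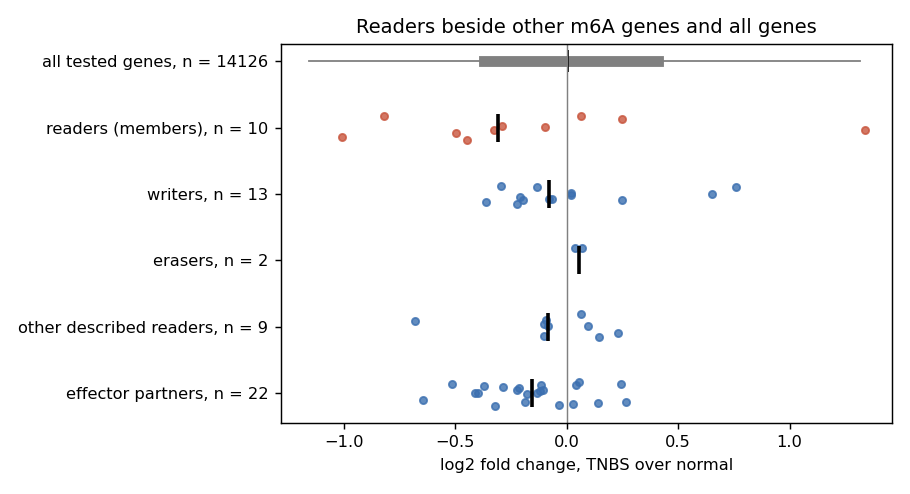
Log2 fold change, TNBS over normal, of each tested reader (red) and each other m6A gene by role (blue), with the median of each list as a black bar; the grey bar spans the middle of all 14126 tested genes (25th to 75th percentile, thin line 5th to 95th). The reader median is -0.31 and those of the other lists lie between -0.16 and 0.05.

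For each reader the tested genes with the most similar log2 CPM over the 6 libraries were looked up among 12110 candidates, as a description. Those closest to Ythdc1 were AI597479, Ifih1 and Arhgap21, with Pearson's r of 0.996 each, and to Ythdc2 Cap1, Rtn3 and Zfp719 with r of 0.997 to 0.998. Among the genes nearest to Hnrnpc were Atg4a and Idi1 with r of 0.999 and 0.997, and the nearest to Hnrnpa2b1 were Abce1, Cbfb and Heatr1 with r of 0.995 to 0.996. Uhrf2, Racgap1 and Exph5 were nearest to Ythdf1 (r 0.976 to 0.982), and Camsap2, Arhgef7 and Rdx to Ythdf2 (r 0.983 to 0.989). The pattern of Igf2bp2, high in TNBS replicates 2 and 3, was closest to those of Pparg, Prss23 and Ugt2b5 (r up to 0.976). Those of the 3 sparse readers rest on few counts, with Sbk1, Nectin1 and Os9 closest to Ythdf3, Slc29a4, Galm and Gprin3 to Igf2bp1, and Mbd6, Rhog and Dlgap4 to Igf2bp3 (r 0.977 to 0.999). No reader was among the 3 closest genes of another. Candidates needed a mean of at least 50 counts, so Ythdf3, Igf2bp1 and Igf2bp3 could not be. With 3 places among 12110 candidates, this absence does not show whether the readers vary together. Each value is a correlation over 6 points that share their libraries, and carries no test.

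**Figure D5:**
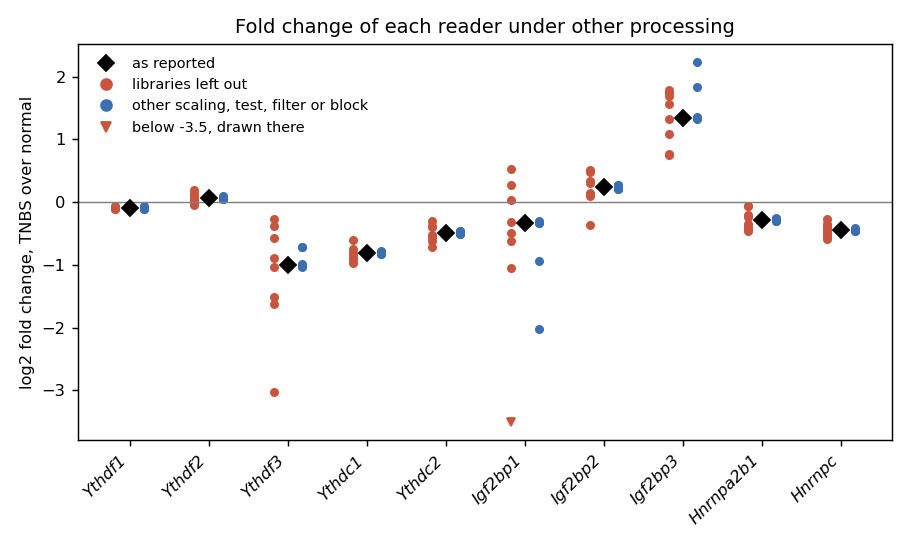
Log2 fold change of each reader as reported (black diamond), with libraries left out (red) and under other scaling, tests, filters or a replicate block (blue); a triangle marks a value below the axis. Ythdc1 stays between -0.97 and -0.60, and Igf2bp1 crosses 0.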

How the data were processed

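Whole-number read counts per gene were deposited by the authors in 1 table for all 6 libraries, per the file headers; a second set of normalized values was not used. The submitters' processing notes list HISAT2, CASAVA 1.8 and mm10. Not given in the sources used here were the counting tool, its annotation and its strand setting. Symbols, lengths and coordinates (1-based, GRCm38) are from GENCODE vM21, which holds 16732 of the 16906 identifiers.

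Genes were kept with edgeR's filterByExpr (minimum count 10, minimum total 15), scaled with TMM and fitted with edgeR 4.0.16 (glmQLFit and glmQLFTest, group only, two-sided, Benjamini-Hochberg over all 14126 tested genes) in R 4.3.3. Standard errors are the absolute log2 fold change over the square root of F. DESeq2 1.42.0 and limma 3.58.1 served as alternatives; DESeq2 gave Ythdf3 and Igf2bp3 no adjusted p. The steps were tested on simulated data. Libraries of a group differed beyond counting error (chi-square per degree of freedom 36.5 to 167), so none was a copy. Floors cover counting error only. The members, lists and tests were chosen with earlier results of these data known. All 10 readers are named, and of the other m6A genes the 3 of smallest p per role; Cnot1 and Malsu1 were chosen after their values were seen. For each reader the 3 genes of most similar pattern were looked up; 1 gene in all is not reported here.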

Additional observations from a re-analysis of the deposited data

How the results depend on the processing

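No reader passed the edgeR threshold under any other scaling, filter, block or library left out, and limma-voom called none; DESeq2 called 1, Ythdc1. None of the other m6A genes was called under any of these. The number of all tested genes called was 289, and it was 1345 with DESeq2, 746 without TNBS replicates 1 and 3 and 46 without TNBS replicates 2 and 3. Leaving out 1 library gave 15 to 1090 calls, 15 without normal replicate 2 and 1090 without TNBS replicate 1. The sign turned for Ythdf2 without normal replicate 2 (-0.0270) and without TNBS replicates 2 and 3 (-0.0479). It turned for Igf2bp1 without normal replicate 2 (0.03), without TNBS replicate 1 (0.27) and without TNBS replicates 1 and 3 (0.53), and for Igf2bp2 without TNBS replicates 2 and 3 (-0.36); the cause was not tested. Leaving out 1 library each gave -0.0270 to 0.20 for Ythdf2, -1.05 to 0.27 for Igf2bp1, 0.095 to 0.48 for Igf2bp2, -1.62 to -0.38 for Ythdf3 and -0.62 to -0.30 for Ythdc2. The other readers kept their direction in every alternative run. Same-numbered libraries did not deviate together (correlations 0.00547, 0.0149 and 0.0354), and with a replicate block 360 genes and no reader were called, with Ythdc1 at -0.80. Under the stricter filter Ythdf3, Igf2bp1 and Igf2bp3 were not tested. Per length, the longest transcript in place of joined exons exchanged the places of Hnrnpc and Hnrnpa2b1 in normal colon and of no other readers.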
